A study of Drosophila melanogaster with 16 samples.

Results

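The array measured 17104 genes and unnamed probe sets in fly heads. Described here are 8 of the genes of folate, glycine, serine, methionine, asparagine and arginine metabolism: Nmdmc, Shmt, aay, Agxt, Gnmt, AhcyL1, AsnS and Ass. They were chosen by gene symbol, with the earlier ethanol against air results of these same arrays known, and each has 1 probe set. All 8 reached log2 4 on each of the 16 arrays, so none of them owed its place to a single group; 8110 genes in all passed the filter of log2 4 on at least 3 arrays.

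The flies were adult males of the Berlin genetic background, 2 to 4 days old, and every array holds head RNA. In the ethanol group (7 arrays), flies breathed saturated ethanol vapor diluted to 60% with humid air for 30 min, and were frozen at once (0 min) or after recovery on food for 30, 60, 90, 120, 180 and up to 210 min. The air group (7 arrays) had humidified air alone for 30 min, with the same recovery times, and 2 arrays, A and B, came from flies with no exposure. Each exposed array is 1 pool made from 3 groups of 200 flies, so each exposure and time has 1 array, repeat pools of a time are lacking, and p-values measure the spread over times.

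One-carbon metabolism moves single carbon units from serine and glycine onto tetrahydrofolate. These units are used for nucleotide synthesis and for the remethylation of homocysteine to methionine, from which S-adenosylmethionine, the methyl donor of the cell, is made. Asparagine synthetase, phosphoserine phosphatase and mitochondrial folate enzymes are known targets of the amino acid stress factor ATF4 in mammals. In flies, Gnmt is known for disposing of excess S-adenosylmethionine in the fat body.

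The values are log2 expression, so 1 unit is a 2-fold change. Head identity was clear on all arrays in the 5 head markers measured. The photoreceptor genes trp and Arr2 lay between 13.73 and 15.18, and the neuronal and glial genes nSyb and repo between 9.49 and 10.76. The neuronal gene elav varied more, from 6.90 to 9.90. On the ethanol array at 0 min the lowest head marker was at 9.83, against at most 8.46 on the other arrays. Its head marker list mean was the highest (11.86), and the part of this in its values was not tested. The air arrays at 0, 60 and 120 min and the ethanol array at 120 min also carried transcripts of the male reproductive tract (6 to 12 of 15 markers at or above log2 4, list means 4.28 to 7.05) and of the gut (6 to 7 of 12, list means 5.06 to 5.91). On the other 12 arrays 0 of these markers reached log2 4, and their list means were 2.37 to 2.44 and 2.18 to 2.21. Head fat body markers, of which 7 of 8 were at or above log2 4 on every array, had list means of 9.68 to 9.96 after ethanol, 9.47 to 9.83 after air and 9.61 to 9.62 in unexposed heads. In whole-head RNA, fewer cells of a type and less RNA per cell cannot be told apart.

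The first question was how the 8 genes stood after ethanol against after air at each recovery time. Nmdmc, AsnS and aay were higher after ethanol at 7 of 7 times. Shmt and Gnmt lay close to or below air through 90 min and above it from 120 min on, Gnmt by up to 6.90-fold. Agxt stood lower after ethanol from 60 min on and Ass from 30 min on, and AhcyL1 had no steady difference. Because the members were chosen with this contrast known, its values are a description and carry no test.

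**Figure D1:**
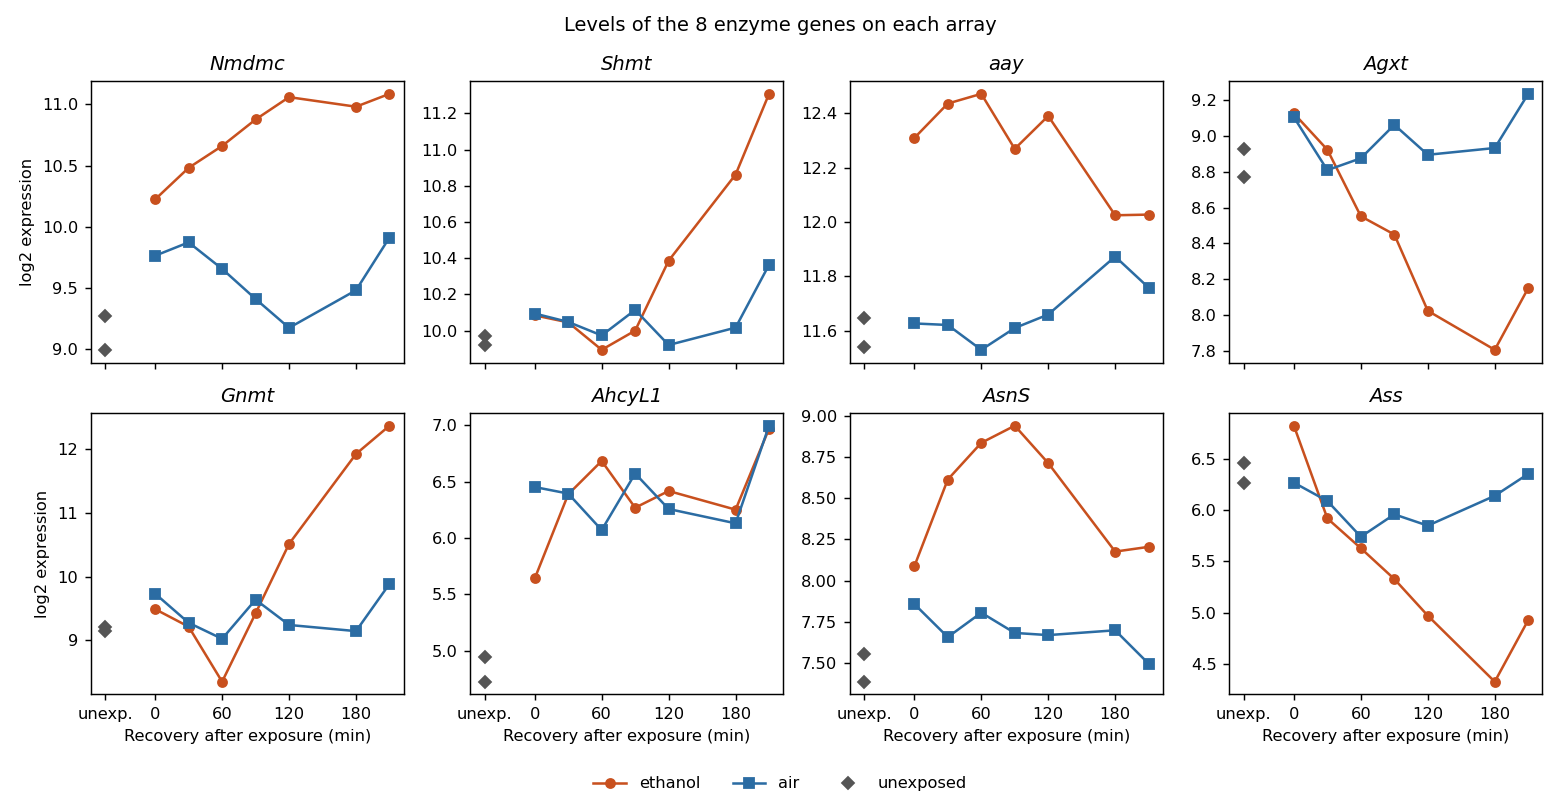
Log2 expression (y axis, a separate scale in each panel) of the 8 genes against recovery time in minutes, with 1 point per array: orange circles are ethanol, blue squares air, and grey diamonds at the left the 2 unexposed arrays. Nmdmc, aay and AsnS run above air throughout, Gnmt climbs to 12.37 at 210 min after ethanol, and AhcyL1 is above the unexposed arrays in both exposed groups.

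Nmdmc (probe set 1640775_a_at; chromosome 3R, 9042508 to 9050555 on the Release 6 assembly) encodes a mitochondrial methylenetetrahydrofolate dehydrogenase and cyclohydrolase. Its lowest, median and highest log2 levels were 10.22, 10.88 and 11.09 after ethanol, 9.17, 9.66 and 9.91 after air, and the unexposed arrays had 9.27 (A) and 8.99 (B). All ethanol arrays were above all air arrays, and 6 of 7 air arrays were above both unexposed ones. The ethanol minus air difference in log2 was 0.46 at 0 min, 0.61 at 30 min, 1.004 at 60 min and 1.47 at 90 min, then 1.88 at 120 min and 1.17 at 210 min. The gap thus widened over the first 120 min, where it was 3.69-fold, and averaged 1.16 (SD 0.51, n = 7 times). At 120 min the ethanol array had 11.06 and the air array 9.17, the lowest air value of this gene. At 180 min they had 10.98 and 9.48.

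Shmt (probe set 1640594_at; chromosome X, 5913067 to 5916797) encodes serine hydroxymethyltransferase, which takes a carbon unit from serine and leaves glycine. Its lowest, median and highest levels were 9.89, 10.08 and 11.31 after ethanol and 9.92, 10.05 and 10.36 after air, with 9.97 and 9.92 in unexposed arrays A and B. The ranges overlapped, and 3 of 7 ethanol arrays, those at 120, 180 and 210 min, were above every air array. Over 0 to 90 min the difference was -0.05 on average (SD 0.05, n = 4 times). Over 120 to 210 min it was 0.75 (SD 0.25, n = 3 times), reaching 0.94 or 1.92-fold at 210 min. Nmdmc, by comparison, was 0.46 above air at 0 min, where Shmt was at -0.01; this difference in timing was not tested.

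In serine synthesis, aay (astray; probe set 1633488_at; chromosome 3L, 9423253 to 9424781) encodes phosphoserine phosphatase, the last step of making serine. Its lowest, median and highest levels were 12.02, 12.31 and 12.47 after ethanol and 11.53, 11.63 and 11.87 after air, and the unexposed arrays had 11.65 and 11.54. The lowest ethanol array was above the highest air array. The difference was 0.68 at 0 min, 0.82 at 30 min, 0.94 at 60 min, 0.66 at 90 min and 0.73 at 120 min, but 0.15 and 0.27 at 180 and 210 min. It averaged 0.61 (SD 0.29, n = 7 times) and was largest at 60 min, at 1.92-fold. As the ethanol arrays came down late (12.02 at 180 min and 12.03 at 210 min), the air arrays of those times were the 2 highest of their group (11.87 and 11.76).

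Agxt (probe set 1637872_at; chromosome X, 6528948 to 6530726) encodes a peroxisomal-type alanine-glyoxylate aminotransferase, an enzyme that forms glycine from glyoxylate. Its lowest, median and highest levels were 7.81, 8.45 and 9.12 after ethanol and 8.81, 8.93 and 9.23 after air, with 8.93 and 8.77 in unexposed arrays. The ethanol arrays from 60 min on, 5 of 7, were below every air array, and those at 0 and 30 min lay within the air range. The difference was 0.02 at 0 min and 0.11 at 30 min, then -0.32 at 60 min, -0.61 at 90 min, -0.87 at 120 min, -1.13 at 180 min and -1.08 at 210 min. Agxt was thus 2.18-fold lower after ethanol at 180 min, and over all times the difference averaged -0.55 (SD 0.51, n = 7).

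In the methionine cycle, Gnmt (probe set 1634551_at; chromosome 3R, 12674608 to 12676084) encodes glycine N-methyltransferase, which spends S-adenosylmethionine to methylate glycine. Its ethanol levels were 9.49 at 0 min, 9.21 at 30 min, 8.35 at 60 min, 9.42 at 90 min, 10.51 at 120 min, 11.93 at 180 min and 12.37 at 210 min. The lowest, median and highest air levels were 9.02, 9.27 and 9.88, and the unexposed arrays had 9.15 and 9.20. The ethanol array at 60 min was therefore below every air and unexposed array, and those from 120 min on were above them all. The difference was -0.67 at 60 min, 1.28 at 120 min (2.42-fold), 2.79 at 180 min (6.90-fold) and 2.49 at 210 min (5.61-fold). Its mean of 0.77 (SD 1.42, n = 7 times) hides this turn, as the SD is larger than the mean.

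AhcyL1 (probe set 1635976_at; chromosome 3L, 2768466 to 2772325) encodes a protein related to adenosylhomocysteinase, known as IRBIT. Its lowest, median and highest levels were 5.64, 6.39 and 6.97 after ethanol and 6.07, 6.39 and 6.997 after air, whereas the unexposed arrays had 4.94 and 4.72. The 2 exposed groups overlapped almost completely, and both lay above the unexposed arrays. The difference between ethanol and air changed sign between times, from -0.81 at 0 min to 0.61 at 60 min and -0.03 at 210 min, with a mean of -0.04 (SD 0.44, n = 7).

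AsnS (probe set 1633765_at; chromosome 3L, 21173118 to 21174973) encodes asparagine synthetase, which makes asparagine from aspartate and glutamine. Its lowest, median and highest levels were 8.09, 8.61 and 8.94 after ethanol and 7.496, 7.68 and 7.86 after air, with 7.55 and 7.39 in unexposed arrays. All 7 ethanol arrays were above all air and unexposed arrays. The difference was 0.23 at 0 min, 0.96 at 30 min, 1.03 at 60 min, 1.26 at 90 min, 1.04 at 120 min, 0.48 at 180 min and 0.71 at 210 min. It was small directly after exposure, widest at 90 min (2.39-fold), and averaged 0.81 (SD 0.36, n = 7 times).

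Ass (probe set 1641357_at; chromosome 3R, 6642262 to 6644434) encodes argininosuccinate synthase, which joins citrulline to aspartate on the way to arginine. Its ethanol levels were 6.83 at 0 min, 5.92 at 30 min, 5.63 at 60 min, 5.33 at 90 min, 4.97 at 120 min, 4.32 at 180 min and 4.93 at 210 min. The lowest, median and highest air levels were 5.74, 6.09 and 6.36, and the unexposed arrays had 6.46 and 6.27. The ethanol array at 0 min was above every air and unexposed array, and 5 of 7, from 60 min on, were below them all. The difference was 0.56 at 0 min and -1.82 at 180 min, a level 3.53-fold lower after ethanol, and averaged -0.64 (SD 0.82, n = 7 times).

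**Figure D2:**
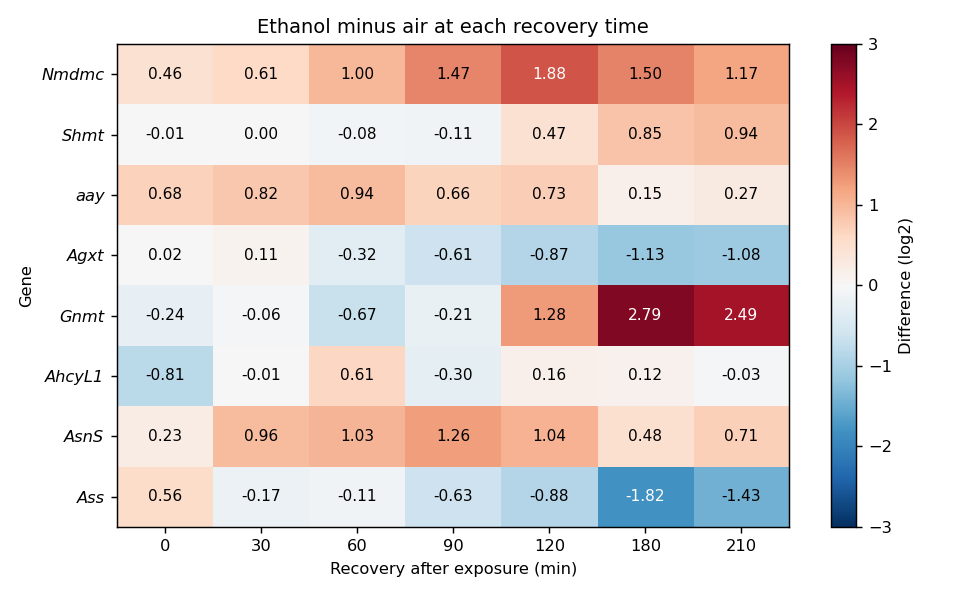
Ethanol minus air difference in log2 (color and printed value) for each of the 8 genes (rows) at each recovery time in minutes (columns), with 1 ethanol and 1 air array per cell. Red cells fill the rows of Nmdmc, aay and AsnS, the Gnmt row turns from -0.67 at 60 min to 2.79 at 180 min, and Agxt and Ass turn blue from 60 and 30 min on.

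In the fit across all 8110 genes, 3 of 8 members (Nmdmc, AsnS and aay) were called higher and 0 lower, against 0.419% of all genes called higher and 0.271% lower. The same 3 were the members whose ethanol arrays all lay above all air arrays, a separation seen in 0.271% of genes. As the choice of members used this contrast, nothing is read from these counts. The called count was 0 of 8 without the 60, 90, 120 or 210 min pair. Of all 8110 genes, 8, 24, 9 and 16 were called in those fits. Without the 0, 60 and 120 min pairs together the member count was also 0 of 8, with 24 genes called in all. The count without the filter was 0 of 8, and 0 of 17104 genes. Without the 30 min pair the member count was 1 of 8, with 22 genes called in all. Without the 0 or the 180 min pair it was 2 of 8, with 104 and 51 genes called in all. Over 17 alternatives the mean difference lay between 1.035 and 1.27 for Nmdmc, 0.74 and 0.93 for AsnS and 0.47 and 0.69 for aay. It moved further for Gnmt (0.43 without the 180 min pair to 1.25 without the 0, 60 and 120 min pairs) and Ass (-1.01 to -0.44). For Shmt it ran from 0.18 without the 210 min pair to 0.42, for Agxt from -0.68 to -0.46 and for AhcyL1 from -0.14 to 0.09.

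At the 30, 90, 180 and 210 min pairs, free of reproductive tract and gut transcripts, the mean difference was 1.19 for Nmdmc (SD 0.41), 0.85 for AsnS (SD 0.33), 0.47 for aay (SD 0.31) and 0.42 for Shmt (SD 0.55, n = 4 each). It was 1.25 for Gnmt (SD 1.61), -0.68 for Agxt (SD 0.58), -1.01 for Ass (SD 0.75) and -0.05 for AhcyL1 (SD 0.18, n = 4 each). Each of the 8 had the same sign there as over all 7 times. The turn of Gnmt and the late position of Agxt and Ass include the 180 and 210 min pairs, in which 0 of 15 reproductive tract and 0 of 12 gut markers reached log2 4. The share of these transcripts in the values at 0, 60 and 120 min was not tested. The fat body list mean averaged 9.81 after ethanol and 9.62 after air, and its part in the differences was not tested.

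The second question was whether the ethanol minus air difference moved with recovery time. Its slope in log2 per hour was 0.99 for Gnmt (SE 0.18), 0.32 for Shmt (SE 0.06), 0.26 for Nmdmc (SE 0.11) and 0.12 for AhcyL1 (SE 0.12). It was 0.00 for AsnS (SE 0.11), -0.18 for aay (SE 0.06), -0.38 for Agxt (SE 0.05) and -0.61 for Ass (SE 0.08; n = 7 times for each of the 8). The slopes came mainly from the ethanol arrays, where they ran from -0.57 per hour (Ass) to 1.02 (Gnmt), against -0.07 (AsnS) to 0.08 (AhcyL1) in the air arrays. The fit called 2 of 8 members, Agxt and Ass, as declining, against 0.604% of all genes declining and 0.074% increasing (49 and 6 genes; 13 and 5 with quantile scaling, 9 and 1 with median scaling), and nothing is read from that count either, since Ass was already known from this slope. Leaving out a single pair gave 0 of 8, except for the 210 min pair, which gave 2 of 8. Of all 8110 genes, 69 were called without the 210 min pair, 1 without the 180 min pair and 0 without each of the others. The count was 1 of 8 with quantile scaling, and 0 of 8 with median scaling, with array weights or with trend and robust variances. Array weights and trend and robust variances called 0 of all 8110 genes too. The member count was also 0 of 8 without the filter (9 of 17104 genes) or without the 0, 60 and 120 min pairs (0 of 8110 genes). With the filter at log2 6 it was 3 of 8 (77 of 6910 genes), with Gnmt added as increasing. The median slope over all genes was -0.051 as deposited, -0.0005 with quantile scaling and -0.054 with median scaling.

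Both exposed groups together, as the mean of the ethanol and air groups, were then set against unexposed heads. The errors of this contrast are unrelated to those of ethanol minus air, but a difference in the ethanol arrays enters it, so for members that stood apart after ethanol it is no independent evidence. AhcyL1, whose ethanol and air means differed by -0.04, is touched least by this. It too was chosen with earlier results of these arrays known, which may have included exposed against unexposed. Its p-value is therefore no independent evidence either. AhcyL1 rose in exposed heads: it averaged 6.37 after ethanol (SD 0.41, n = 7), 6.41 after air (SD 0.31, n = 7) and 4.83 in unexposed heads (n = 2), a difference of 1.56 log2 or 2.95-fold (SE 0.25; limma with Benjamini-Hochberg adjustment over 8110 genes, adjusted p = 0.0469). It was higher in 14 of 14 exposed arrays than in both unexposed ones. Across all genes 0.0617% were called higher and 0.0123% lower in this comparison (0.074% in either direction), and 2.84% had all exposed arrays above both unexposed arrays.

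The other 7 members did not pass in this fit. Nmdmc had a difference of 1.05 (SE 0.21, adjusted p = 0.0715), with 13 of 14 exposed arrays above both unexposed ones; it passed without the 0 min pair, with array weights and in the ethanol arm alone. AsnS had 0.63 (SE 0.18, adjusted p = 0.231) and aay 0.38 (SE 0.11, adjusted p = 0.259). In limma AsnS passed with array weights (adjusted p = 0.0392) and in the ethanol arm alone (0.0178), and aay in the ethanol arm alone (0.0169). In the air arm alone 0 of 8 members passed, and 0 of all 8110 genes did. Over all genes 58 passed in the ethanol arm alone, 62 with array weights and 29 without the 0 min pair. Gnmt (0.62, SE 0.71), Shmt (0.28, SE 0.26), Agxt (-0.14, SE 0.24) and Ass (-0.62, SE 0.40) had adjusted p from 0.762 to 0.968, all from limma. The arms enter these values unequally: Nmdmc was 1.63 above unexposed after ethanol and 0.48 after air, AsnS 1.04 and 0.22, aay 0.68 and 0.07, and Gnmt 1.01 and 0.24. Shmt was at 0.42 and 0.13, Agxt at -0.42 and 0.14, and Ass at -0.95 and -0.30. AhcyL1 was at 1.54 after ethanol and 1.58 after air. These comparisons share the 2 unexposed arrays.

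**Figure D3:**
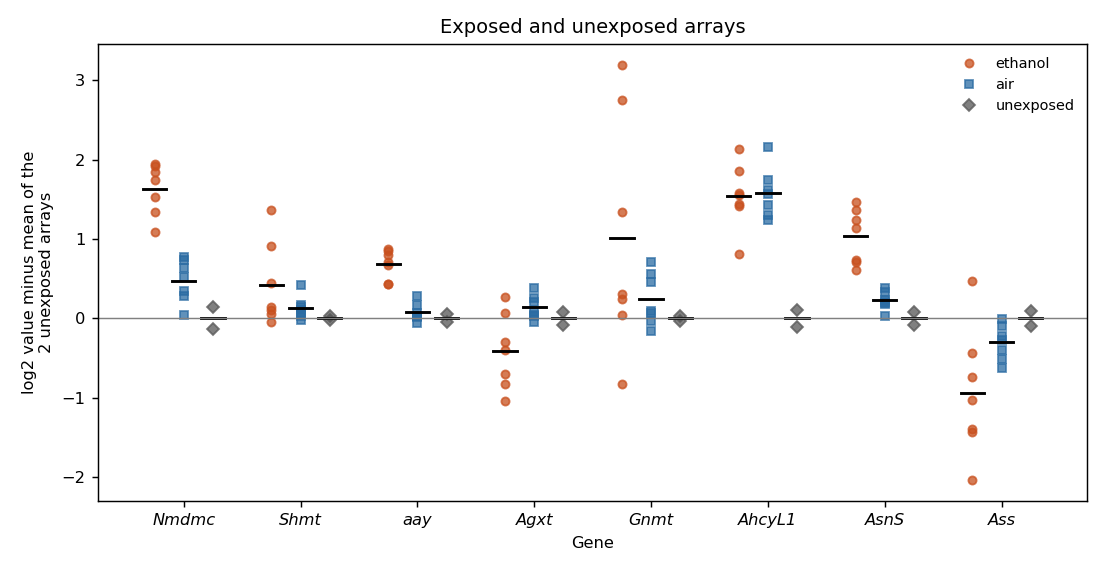
Log2 value of every array minus the mean of the 2 unexposed arrays (y axis) for the 8 genes, with 1 point per array, ethanol left, air in the middle and unexposed right, and a black bar at each group mean. AhcyL1 is near 1.5 in both exposed groups, while Nmdmc, aay and AsnS are farther from 0 after ethanol than after air.

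The AhcyL1 call rests on few arrays. Its difference stayed between 1.45 and 1.67 over 19 alternatives, but its adjusted p ran from 0.00285 to 0.592 and passed in 8 of them. It did not pass without unexposed array A (0.176) or B (0.592), without the 30, 60, 90, 120 or 180 min pair (0.078, 0.0695, 0.0936, 0.0656 and 0.0621), without the 0, 60 and 120 min pairs together (0.0775), with quantile or median scaling (0.0544 and 0.0755), or with the air arm alone (0.0804). In the main fit 6 of 8110 genes were called. Without the 30, 60, 90, 120 or 180 min pair 2, 1, 1, 0 and 0 were called, and 0 without the 0, 60 and 120 min pairs. Quantile and median scaling called 1 gene each, and the air arm alone 0. Without the 0 or 210 min pair, where AhcyL1 passed, 29 and 13 genes were called. The loss of the call in such fits does not set AhcyL1 apart from other genes. Both exposures came with air flow and confinement in tubes, which the unexposed flies did not have, and these cannot be told apart.

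The recovery-time slope shared by both groups was taken from the mean of the ethanol and air array of each time. For Gnmt, Shmt, Nmdmc, Agxt and Ass the air slopes were near 0, so it holds mostly the ethanol slopes by which members were known. The ethanol and air slopes were -0.06 and -0.07 for AsnS, -0.11 and 0.07 for aay, and 0.20 and 0.08 for AhcyL1. Nothing is read from the counts of the shared slope. In limma 0 of 8 members passed after adjustment, against 0.271% of all genes called increasing and 0.136% decreasing (22 and 11 genes; 60 and 8 with median scaling). At an unadjusted p below 0.05 there were 5 of 8 members, against 1243 of 8110 genes. Gnmt had 0.53 log2 per hour (SE 0.13, adjusted p = 0.125), Shmt 0.21 (SE 0.05, adjusted p = 0.129) and Ass -0.26 (SE 0.08, adjusted p = 0.18). Agxt had -0.15 (adjusted p = 0.231) and Nmdmc 0.10 (adjusted p = 0.217), while AhcyL1, AsnS and aay had 0.14, -0.07 and -0.02 (adjusted p = 0.385, 0.592 and 0.699). The counts in the ethanol arrays alone rest on those same slopes, so nothing is read from them either. There 5 of 8 members passed, among 262 of 8110 genes. Nmdmc, Shmt and Gnmt had positive slopes, and Agxt and Ass negative ones. In the air arrays alone 0 of 8 members and 0 genes passed. In the air arrays Nmdmc, Agxt, aay and Ass had slopes of the opposite sign (-0.03, 0.04, 0.07 and 0.04).

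The remaining genes of the same pathways were then examined. Of 49 written, 45 were measured and 41 passed the filter. None was called in any of the 4 comparisons: 0 of 41 in ethanol against air (limma; 7 at unadjusted p below 0.05, where all genes had 980 of 8110), 0 in the change of that difference with time (9 unadjusted, against 1257 of all genes), 0 in exposed against unexposed (1 unadjusted, against 720) and 0 in the shared slope (6 unadjusted, against 1243). With 0.691%, 0.678%, 0.074% and 0.407% of all genes called in these comparisons, 0 of 41 does not set these genes apart from the rest. Their median ethanol minus air difference was -0.05 log2, against -0.01 over all genes, and they ran from -0.37 to 0.36.

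Among 8 folate cycle and glycine cleavage genes the median difference was 0.07. CG8026 had 0.36 (SE 0.10, adjusted p = 0.212, range 0.0311 to 0.538 over 17 alternatives, passing in 1), with 6 of 7 times higher, and ppl (pumpless), the lipoyl-carrying protein of glycine cleavage, had 0.36 (SE 0.11, adjusted p = 0.269). Sardh, sarcosine dehydrogenase, which removes the methyl group from the product of Gnmt, had 0.12 (adjusted p = 0.654). The cytosolic folate enzyme pug, which shares the dehydrogenase and cyclohydrolase activities of Nmdmc, averaged 9.55 after ethanol (SD 0.16) and 9.62 after air (SD 0.17, n = 7 each), a difference of -0.07 (SE 0.06, adjusted p = 0.706).

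The 5 serine and glycine genes had a median of -0.08, with Gcat at -0.28 (adjusted p = 0.326), Srr, serine racemase, at 0.22 (0.813) and Tdh at 0.19 (0.76). The 11 methionine and transsulfuration genes had -0.07, with AhcyL2 at -0.31 (0.374), CG10621 at -0.18 (0.809) and Bhmt at -0.13 (0.667). Ahcy, the adenosylhomocysteinase itself, averaged 9.45 after ethanol (SD 0.15), 9.44 after air (SD 0.13, n = 7 each) and 9.25 in unexposed heads. Its exposed minus unexposed difference was 0.19 (adjusted p = 0.671) and that of AhcyL2 -0.33 (adjusted p = 0.67), beside 1.56 for AhcyL1.

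The 8 aspartate, asparagine, arginine and glutamine genes had a median of -0.04, with Nos, nitric oxide synthase, at 0.29 (adjusted p = 0.255, above air at 7 of 7 times), Oat, ornithine aminotransferase, at -0.11 (0.72) and CG1827 at -0.07 (0.703). The 9 genes of amino acid stress signalling and transport had a median of 0.00, with mnd (minidiscs), an amino acid transporter gene, at -0.37 (0.349), Atf3 at 0.35 (0.311) and the eIF2 kinase gene Gcn2 at -0.29 (0.442). The gene of ATF4, crc (cryptocephal), named after its values were seen, averaged 13.45 after ethanol (SD 0.10) and 13.46 after air (SD 0.06, n = 7 each), a difference of -0.02 (SE 0.05, adjusted p = 0.93). All adjusted p are from limma across 8110 genes.

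**Figure D4:**
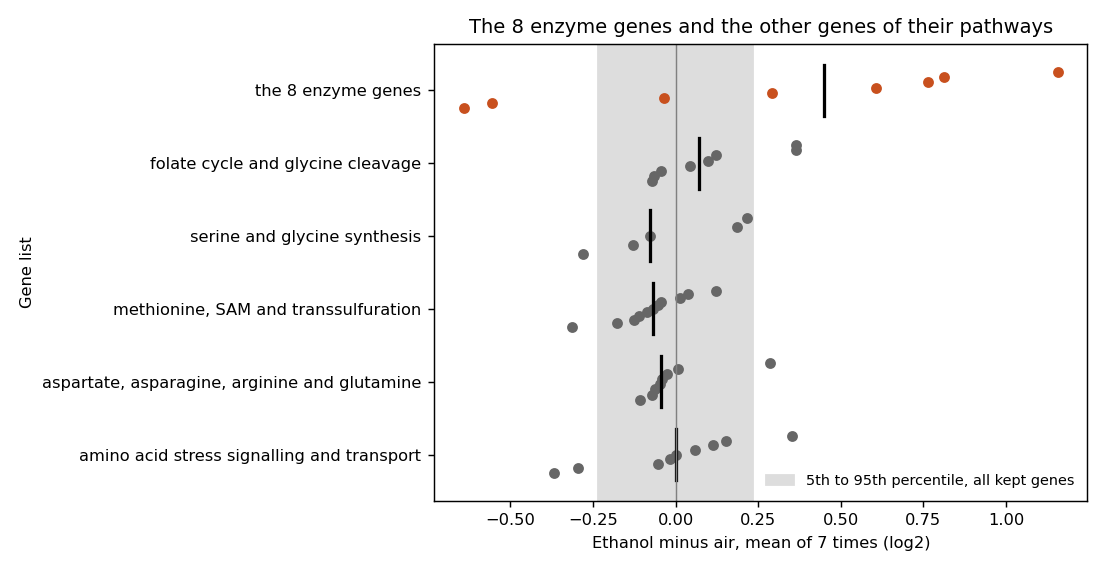
Mean ethanol minus air difference over 7 times in log2 (x axis), with a black bar at each median. Orange marks the 8 genes described here, labelled as enzyme genes, and grey the 41 other kept genes of 5 pathway lists. The grey band is the 5th to 95th percentile of all 8110 genes (-0.24 to 0.23); the 8 genes, chosen with this contrast known, spread from -0.64 to 1.16 and the others from -0.37 to 0.36.

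Genes with profiles most like each member over the 16 arrays were found by Pearson's r among 7096 other named genes. The arrays share exposure and time, so r is a description, given with Spearman's rho beside it. Nmdmc was most like CG31706 (r 0.91, rho 0.88) and the serpin gene Spn27A (0.90 and 0.82). Shmt was most like lncRNA:alphagamma-element:CR32865 (0.92 and 0.36) and Gart (0.91 and 0.65), and Gnmt like Gart (0.91 and 0.72) and the Bomanin gene BomBc2 (0.90 and 0.63). Gart, which encodes a purine synthesis enzyme that uses folate-bound carbon units, was 0.18 below air over 0 to 90 min and 0.74 above it over 120 to 210 min, as means of log2 differences.

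For Agxt the closest were the cytochrome P450 genes Cyp12a4 (r 0.98, rho 0.91) and Cyp6t1 (0.96 and 0.90), and for Ass the peptidase-related gene Acer (0.97 and 0.94) and again Cyp6t1 (0.97 and 0.94). Cyp6t1 had a mean difference of -0.17 over 0 to 90 min and -0.98 over 120 to 210 min, where Agxt had -0.20 and -1.03 and Ass -0.09 and -1.38. AsnS was most like Agpat2 (0.95 and 0.86), an acyltransferase gene of lipid synthesis, and CG12268 (0.95 and 0.87), and aay like the homeobox gene hbn (0.90 and 0.74) and the growth factor gene Idgf1 (0.90 and 0.81). AhcyL1 was most like Cul3 (0.95 and 0.94), a ubiquitin ligase scaffold gene, and CG10947 (0.94 and 0.82). Both stood higher in the exposed groups. Cul3 was at 8.05 after ethanol and 8.11 after air beside 7.66 unexposed, and CG10947 at 7.69 and 7.67 beside 7.15. These values, like those of Gart and Cyp6t1, follow from the search for like profiles and are no further evidence.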

How the data were processed

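The deposited values are log2 expression per probe set of 16 Affymetrix arrays. GCRMA is named for them in the submitters' processing notes, and its version is not given in the sources used here. GCRMA corrects background by probe sequence and normalizes across arrays, so a change in total RNA cannot be seen. Array number, not read depth, limits the precision.

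Of 18952 probe sets, 183 controls were left out. The rest took current symbols through their Entrez IDs, using the platform annotation and RefSeq's table of genes (13647 with 1 symbol, 402 with several, 4720 with none), and the highest-mean probe set of a gene was used. Genes reaching log2 4 on at least 3 arrays were tested with limma 3.58.1 in R 4.3.3 and Benjamini-Hochberg adjustment over 8110 genes, called at adjusted p < 0.05. Ethanol against air had time as a factor. Slopes were fitted to the 7 differences or pair means, and exposed against unexposed in a model of 3 groups over 16 arrays, whose spread includes the change over time. Of 200 simulated 2-fold changes among 8110 genes, 94.5% were recovered for ethanol against air and 89.5% for exposed against unexposed, and of slopes of 1 log2 unit per hour 95.5% for the difference and 98.5% for the shared slope. Of the simulated calls 8.7%, 3.76%, 4.02% and 7.08% were false, in the same order. The simulated noise was independent between genes and arrays, without body-tissue transcripts or change over time. The simulated slope was steeper than the slope of the difference in every member. These rates therefore do not give the power in the real arrays.

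The members, pathway lists and tests were chosen with earlier results of these data known. By the rule, named pathway genes were those called, the 3 largest absolute ethanol minus air differences of each list, and paralogs of members; for each member the 2 most alike genes were named. Alternatives covered filter, scaling, probe sets, variance model, array weights, time matching and arrays left out. A planned promoter motif search was not run, as no sequences were used here. P-values measure the spread between these arrays.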

Additional observations from a re-analysis of the deposited data

Results flagged for a closer look

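Among 42 groups of 7 values examined, 3 had 1 value whose gap to its neighbor, over the whole range, passed Dixon's 95% limit; chance flags about 1 group in 20. All 3 are ethanol minus air differences at 90 min of pathway genes beside the 8 members: Gcat at -0.87 (next -0.34), Oat at -0.70 (next -0.11) and Nos at 0.81 (next 0.28). No value of the 8 members was set apart in this way, in their ethanol arrays, their air arrays or their differences.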

How the results depend on the processing

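The count of genes called for ethanol against air (56) was 0 without a filter, 150 with array weights and 24 with the 0, 60 and 120 min pairs dropped; dropping 1 pair gave 8 to 104. With no replicate block it was 45 (time left out) or 74 (minutes as a linear term), and both fits called the same 3 members. The change of the difference with time (55) gave 9 without a filter, 18 with quantile and 10 with median scaling, 0 with trend and robust variances, with array weights or without the 0, 60 and 120 min pairs, and 0 to 69 with 1 pair left out. Exposed against unexposed (6) gave 17 without a filter, 1 with quantile or median scaling, 62 with array weights, 0 without the 0, 60 and 120 min pairs, 0 in the air arm alone, 58 in the ethanol arm alone, and 0 to 29 with 1 pair or unexposed array left out. The shared slope (33) gave 19 without a filter, 67 at log2 6, 68 with median scaling, 107 with trend and robust variances, 66 with array weights, 0 without the 0, 60 and 120 min pairs, 0 in the air arm alone, 262 in the ethanol arm alone, and 0 to 30 with 1 pair left out. The cause was not tested, other than that fewer arrays or more genes enter some of these fits. Signs turned, none of them called, for Srr (-0.078 without the 0, 60 and 120 min pairs), CG10621 (-0.279 to 0.024 with 1 pair left out, positive without the 120 min pair) and crc (0.0053 with median scaling) in ethanol against air, and for AhcyL1 (0.071 with array weights, 0.093 and 0.0083 without the 0 or 90 min pair). They also turned for the slope of the difference of AhcyL1 (-0.048 without the 0 min pair) and AsnS (5 alternatives, down to -0.166), for Agxt against unexposed (0.14 in the air arm alone), and for the shared slope in the air arm alone of Nmdmc (-0.033), Agxt (0.043), aay (0.067) and Ass (0.043).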
